A study of Chelon labrosus with 24 samples.

Results

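The comparison described here sets livers of thicklip grey mullets (Chelon labrosus) caged in the inner part of Pasaia harbour (Pasaia_AZTI) against livers of mullets caged in the outer part (Pasaia_Donibane), both taken at the second sampling. It uses 12 of the 24 arrays of the series, 6 inner and 6 outer, chosen by the sampling and the place in their labels. All fish were immature, and the other 12 arrays hold livers from both places at the first sampling. The sample labels place the samplings at day 5 and day 21, whereas the design text of the series gives exposures of 3 and 15 days, and first and second are used here. The labels number the liver samples without saying that each came from a separate fish. Each sample is called a fish here, and p-values rest on the spread between samples, which may be technical. Each place is known from its own caged fish alone, so place and cage cannot be told apart, and no chemical measurement of the water or the fish was used here.

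The liver clears foreign compounds in steps. Phase I enzymes, above all the cytochrome P450 monooxygenases, add or expose a reactive group. Phase II enzymes such as the glucuronosyltransferases and glutathione S-transferases then attach a bulky, water-soluble group, and efflux pumps of the ABC family export the product. Nuclear receptors, among them the peroxisome proliferator-activated receptors, set the level of many of these enzymes and of the genes of lipid handling. The protein CYP1A, metallothionein, vitellogenin and heat shock proteins are widely used in fish as markers of exposure to planar hydrocarbons, metals, estrogens and protein damage.

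At the second sampling 16 of the 129 genes tested (12.4%) had at least 1 probe called higher in inner harbour livers, and no gene had a probe called lower. By size of difference the leading genes were UGT and CYP_2, at 3.74 and 3.60 times the outer level. They were followed by the lipoprotein gene ApoE, MF1 (placed here with the peroxisomal genes), XDh, the nuclear receptor PPARg and CYP7. Hepcidin had the lowest inner level relative to outer livers, but its fish were too spread for a call. The exposure markers CYP1A1, MT, HSP70, VgC and Choriogenina_L did not pass the test. Which genes count as higher or lower depends on how the arrays are scaled, as set out further on. Genes with a probe called higher numbered 2 with the median over detected probes and 3 with quantile normalization or the deposited log2 values. With the 75th percentile over detected probes they numbered 15, among them AOX, which is not one of the 16. UGT and CYP_2 were called higher under every one of the 7 other scalings.

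The arrays carry custom probes of 55 bases, and the probes of 1 gene can overlap. The sequences below are shown because they decide how many separate measurements stand behind CYP_2, UGT and XDh. Each is given 5′ to 3′ as deposited with the array, and capitals mark bases that at least 1 other probe of the same gene shares in a run of 20 or more.

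CYP_2 (CUST_189_PI390737335): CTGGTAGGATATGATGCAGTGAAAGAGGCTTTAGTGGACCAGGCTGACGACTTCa
CYP_2 (CUST_190_PI390737335): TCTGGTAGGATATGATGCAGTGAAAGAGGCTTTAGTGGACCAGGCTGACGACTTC
CYP_2 (CUST_192_PI390737335): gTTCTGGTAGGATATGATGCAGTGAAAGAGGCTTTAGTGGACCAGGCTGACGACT
UGT (CUST_137_PI390737335): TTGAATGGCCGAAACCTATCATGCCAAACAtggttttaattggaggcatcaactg
UGT (CUST_138_PI390737335): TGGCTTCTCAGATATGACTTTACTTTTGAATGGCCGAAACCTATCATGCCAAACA
UGT (CUST_139_PI390737335): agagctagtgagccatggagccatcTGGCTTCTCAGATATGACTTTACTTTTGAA
UGT (CUST_140_PI390737335): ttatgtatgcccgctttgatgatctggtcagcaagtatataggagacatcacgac
XDh (CUST_273_PI390737335): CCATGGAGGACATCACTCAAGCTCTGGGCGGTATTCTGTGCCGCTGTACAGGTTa
XDh (CUST_276_PI390737335): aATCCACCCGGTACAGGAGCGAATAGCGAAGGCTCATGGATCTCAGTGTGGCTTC

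The CYP_2 probes are copies of 1 stretch shifted by a base, sharing up to 54 of 55 bases, so their 4 calls are close to 1 measurement repeated. The UGT probes fall on 2 stretches, and CUST_140_PI390737335 shares no run with the other three. Its site difference was 1.89 log2 units, against 1.88 over the linked probes, so the separate stretches that carry the UGT name gave like values. XDh likewise had 2 stretches, with differences of 1.28 and 1.22. Across the 120 genes with 2 or more tested probes, 467 probes covered 175 stretches, and 87 of these genes had a single stretch. Counts of probes therefore stand for far fewer separate measurements, and the results below are given by gene, using the tested probe with the highest mean over all 24 arrays. In no gene with a called probe did a probe share more than 14 bases in a row with a probe of another gene.

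A level below is the log2 signal of a probe minus the 75th percentile of its array, and a difference is the inner minus the outer mean. Testing required a signal well above background, by the scanner software's own mark, on 6 or more of the 24 arrays, which kept 476 of 638 probes. A probe was called at an adjusted p under 0.05 (limma's moderated test, Benjamini-Hochberg over the 476 probes). The 12 arrays had 371 to 470 probes well above background, on average 447.5 ± 15.8 in inner and 427 ± 29.3 in outer livers (SD, n = 6 each, exact permutation p = 0.156, two-sided). The median log2 signal over probes detected on all arrays was 10.69 ± 0.28 in inner and 10.23 ± 0.18 in outer livers (SD, n = 6 each, exact permutation p = 0.0108, two-sided), while the 75th percentile differed by 0.06 (exact permutation p = 0.725). Arrays of inner livers correlated with each other at 0.954 to 0.984 and arrays of outer livers at 0.975 to 0.991, across probes, which are not independent. Both places lie on each of 3 slides with 2 arrays apiece.

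**Figure D1:**
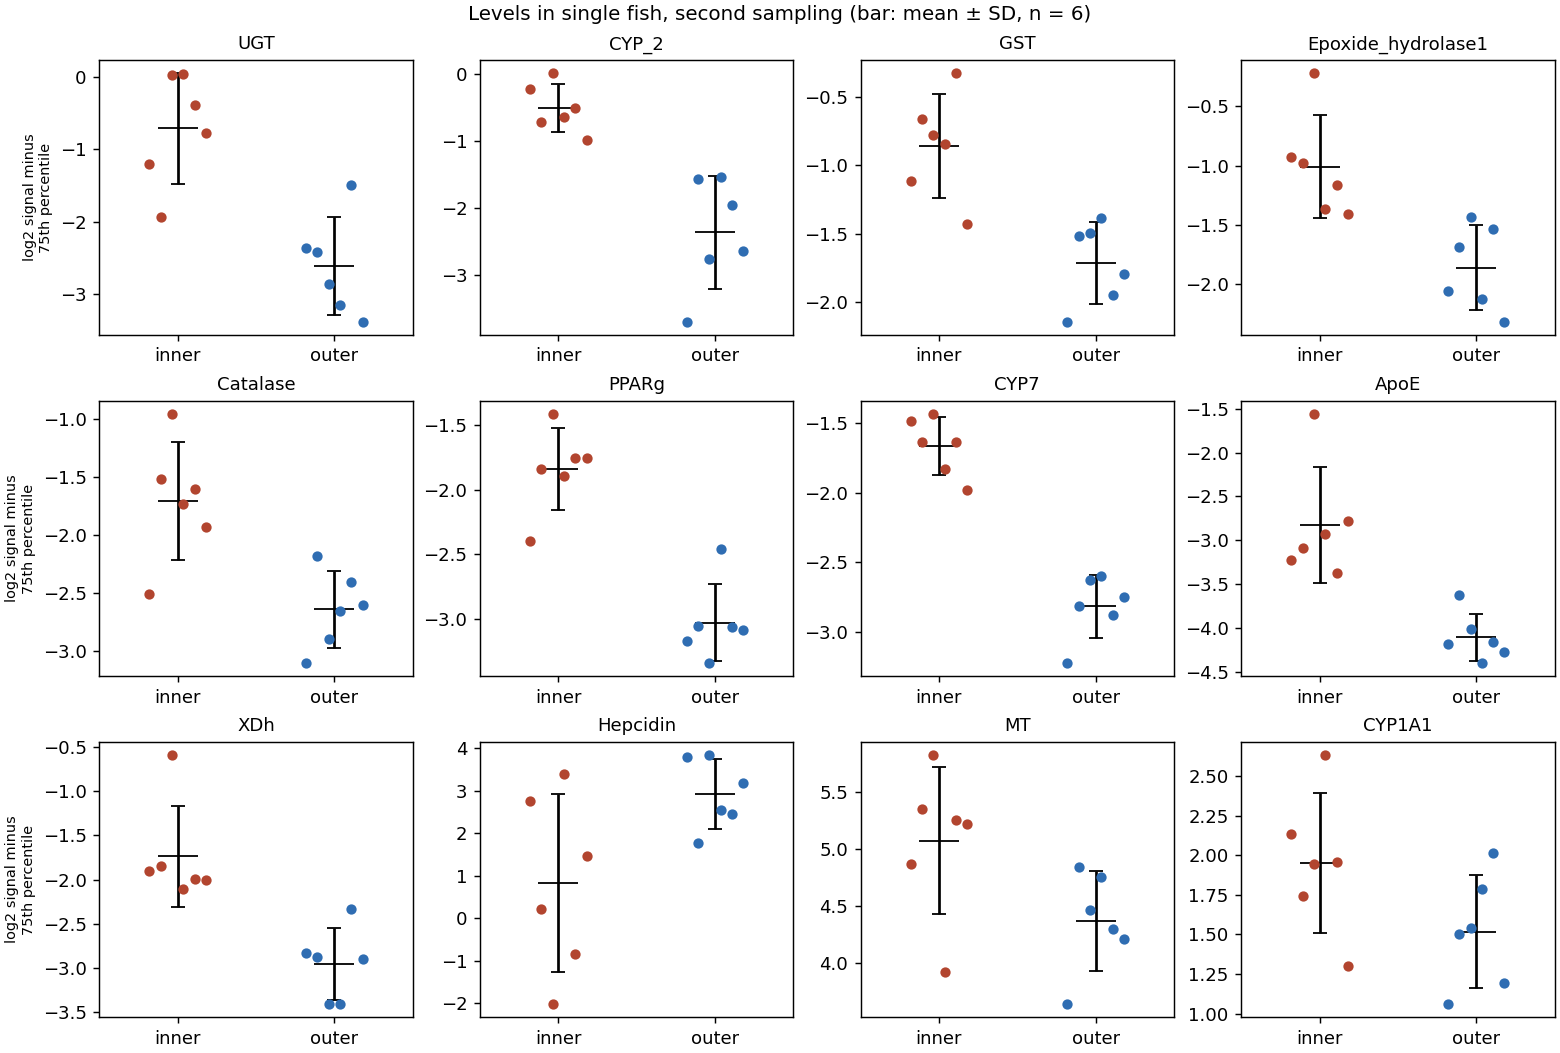
Levels of 12 genes in single fish at the second sampling, inner harbour on the left and outer harbour on the right of each panel, with the mean and SD of 6 fish (vertical axis, log2 signal minus the array's 75th percentile). All inner fish lie above all outer fish for CYP_2, Epoxide_hydrolase1, PPARg, CYP7, ApoE and XDh, while Hepcidin, MT and CYP1A1 overlap.

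The phase I list here also holds genes that are not enzymes, the receptors AHR1 and AHR2 and their repressor AHRR. Its median difference over 10 tested genes was 0.46, against 0.10 over all 129 genes. All 10 had a higher mean in inner livers, as had 82 of the 129. That count was 9 of 10 with each array centred on its median and 6 of 10 with the median over detected probes, where 60 and 34 of the 129 genes had a higher inner mean. By the test 0 were lower, and 2 passed by their representative probe and CYP3 by other probes. Over all genes 15 of 129 (11.6%) passed as higher by their representative probe, the share beside which the counts of each gene list are given. The name CYP_2 is that of a P450 family whose members oxidise drugs and steroids. Cyp2N, also tested under that family's name, had a difference of only 0.11 ± 0.42 (adjusted p = 0.962). The level of CYP_2 lay between -0.98 and 0.01 in inner fish (median -0.57), against -3.70 to -1.54 in outer fish (median -2.29). The lowest inner fish stood above the highest outer fish, and the outer fish were the more spread (SD 0.84, against 0.36 in inner fish). The difference was 1.85 ± 0.30 (SE, adjusted p = 3.25e-04), and within the slides it was 2.16, 1.84 and 1.55.

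Epoxide_hydrolase1, which opens reactive epoxides left by P450 enzymes, had levels of -1.41 to -0.22 in inner fish (median -1.07), against -2.32 to -1.43 in outer fish (median -1.88). The groups met at their edges without overlapping, and the difference was 0.85 ± 0.26 (adjusted p = 0.0296). The call was lost without inner fish 3 or without outer fish 2, 5 or 7, with differences of 0.69 to 0.94 over all 12 such fits. CYP3, a family of broad-range monooxygenases, had a difference of 0.49 ± 0.17 on its representative probe (adjusted p = 0.0542), with 2 of its 4 probes called. These probes lie on 1 stretch. The representative probe was called under 0 of the 7 other scalings, with 0.08 (adjusted p = 0.715) under the median over detected probes. Under those scalings other CYP3 probes were called with normexp background correction alone (2 probes). The remaining phase I genes did not pass. CYP1A1, the P450 enzyme switched on through the aryl hydrocarbon receptor, lay between 1.30 and 2.64 in inner fish (median 1.95), against 1.06 to 2.01 in outer fish (median 1.52). Inner fish 1 and 4 lay above every outer fish and the other four within the outer range. The difference of 0.44 had a 95% interval from -0.15 to 1.02 (adjusted p = 0.461). Its 4 probes share no run of 20 bases, and their differences ran from 0.43 to 0.46, so 4 separate stretches gave like values.

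The receptors upstream of CYP1A1 had 0.37 ± 0.29 (AHR1) and 0.40 ± 0.28 (AHR2), and their repressor AHRR had 0.99 ± 0.41 (adjusted p = 0.145). AHRR was detected above background in 2 inner fish and 1 outer fish, which leaves its size unresolved, and it passed the test without outer fish 5 (1.27, adjusted p = 0.0442). Cyp1, CYP1_C, CYP1Bb, CYP9A1, NAD(P)Hquinone_dehydrogenase and AHRnt1 were too dim for testing.

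Among 7 phase II and efflux genes 2 were higher in inner livers, 0 lower and 5 not called, with a median difference of 0.44. UGT, named for the enzymes that attach glucuronic acid to foreign compounds, bilirubin and steroid hormones, ranged from -1.94 to 0.03 in inner fish (median -0.59), against -3.39 to -1.50 in outer fish (median -2.64). The groups overlapped by 1 fish on each side: inner fish 2 lay below outer fish 6. The difference was 1.90 ± 0.32 (adjusted p = 3.25e-04), and it varied across slides, with 0.82, 3.03 and 1.86. GST, the glutathione-conjugating enzyme, lay between -1.43 and -0.32 in inner fish (median -0.81), against -2.15 to -1.38 in outer fish (median -1.65). Inner fish 7 alone fell inside the outer range, and the difference was 0.85 ± 0.20 (adjusted p = 0.00749). The efflux pumps were not called, with 0.65 ± 0.27 for ABCC2, 0.44 ± 0.33 for ABC-b1 and 0.41 ± 0.44 for ABCC3, and the vault protein MVP had -0.14 ± 0.28.

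The peroxisome list had the highest median difference of the 15 lists, 0.86 over 6 genes, of which 3 were higher, 0 lower and 3 not called, beside 11.6% over all genes. With quantile normalization, the median over detected probes or the deposited values 0 of the 6 were called by their representative probe. Other probes of MF1 were still called higher, 3 under quantile normalization and 2 in the deposited log2 values. PPARa and PPARg are counted again among the nuclear receptors and Catalase among the antioxidant genes. Peroxisomes burn long fatty acids and break down the hydrogen peroxide that this produces. Catalase, which removes the peroxide, ranged from -2.51 to -0.95 in inner fish (median -1.66), against -3.11 to -2.18 in outer fish (median -2.63). Inner fish 1 lay within the outer range and the other five above it, and the difference was 0.94 ± 0.24 (adjusted p = 0.0140). MF1, placed with the enzymes of peroxisomal fatty acid oxidation, lay between -6.44 and -4.99 in inner fish (median -5.69), against -8.53 to -6.12 in outer fish (median -6.82). It was detected in all 6 inner fish but in only 4 outer fish, so the size of its difference, 1.23 ± 0.33 (adjusted p = 0.0150), rests in part on background signal. The call was lost without inner fish 3 (1.13, adjusted p = 0.0532). AOX, the first enzyme of the same pathway, had 0.78 ± 0.28 (adjusted p = 0.0804), and it passed without outer fish 3 (0.89, adjusted p = 0.0475). The transporter PMP70 had 0.42 ± 0.24.

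PPARg, a fatty acid-sensing nuclear receptor that drives fat storage in mammals, ranged from -2.39 to -1.41 in inner fish (median -1.80), against -3.34 to -2.46 in outer fish (median -3.07). The groups did not overlap, but inner fish 1 (-2.39) lay only just above outer fish 5 (-2.46), the highest of its group. Its difference was 1.19 ± 0.30 (adjusted p = 0.0123), and it was even across slides (1.00, 1.25 and 1.32). Thyroid_hormone_receptor_alfa, the thyroid hormone receptor, was also higher, by 0.78 ± 0.23 (adjusted p = 0.0248), with 3 of 4 probes called. It was detected above background in 4 outer fish, and the call was lost without inner fish 3 or 5 or outer fish 4 or 5 (0.69 to 0.88 over the 12 fits). PPARa, the receptor that drives peroxisomal oxidation in rodents, had 0.09 ± 0.51 and the partner receptor RXR 0.16 ± 0.18. Over the 5 receptors tested 2 were higher and 3 not called, with a median of 0.16.

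Of 5 genes of bile acid and lipid transport, 2 were higher and 3 not called, with a median of 0.04. CYP7 carries the name of the P450 family that starts bile acid synthesis from cholesterol. It ranged from -1.98 to -1.43 in inner fish (median -1.64), against -3.23 to -2.60 in outer fish (median -2.78). Both groups were tight (SD 0.21 inner, 0.23 outer) with a clear gap between them, and the difference was 1.15 ± 0.29 (adjusted p = 0.0129). ApoE, which guides lipoproteins to their receptors, ranged from -3.37 to -1.55 in inner fish (median -3.01), against -4.41 to -3.63 in outer fish (median -4.17). The groups did not overlap, although inner fish 3 stood well above the rest of its group. The difference was 1.28 ± 0.39 (adjusted p = 0.0301). It was 1.03 (adjusted p = 0.0987) without inner fish 3, and the call was also lost without outer fish 2, 5 or 7. The bile salt pump ABC-B11 (-0.29 ± 0.20), the lipoprotein Apo_A1 (0.04 ± 0.20) and the fatty acid carrier FABP (-0.13 ± 0.24) were not called.

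XDh, whose name is that used for the purine-degrading enzyme xanthine dehydrogenase, ranged from -2.11 to -0.59 in inner fish (median -1.95), against -3.41 to -2.33 in outer fish (median -2.88). No inner fish reached the outer range, but 5 inner fish sat close together and inner fish 3 far above them. The difference was 1.22 ± 0.40 (adjusted p = 0.0456), and of the 12 fits that left out 1 array it passed only in that without outer fish 6, with adjusted p from 0.0348 to 0.142 and the highest without inner fish 3. IGFI, the liver-derived growth factor that carries the signal of growth hormone, ranged from -0.60 to 0.10 in inner fish (median -0.35), against -1.53 to -0.83 in outer fish (median -1.08). The groups did not overlap, and the difference was 0.82 ± 0.19 (adjusted p = 0.00749). The related IGF_II had 0.20 ± 0.37 and the receptor IGFR1 0.01 ± 0.24, and IGFI was the 1 of 5 growth factor genes called.

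Pyruvate_kinase, the last enzyme of glycolysis, was the 1 of 5 genes of glycolysis and gluconeogenesis called, with levels of -0.53 to -0.05 in inner fish (median -0.24), against -1.21 to -0.73 in outer fish (median -0.91). Its groups did not overlap and had the narrowest spreads of the called genes (SD 0.18 inner, 0.17 outer). The difference was 0.67 ± 0.21 (adjusted p = 0.0308), and the call was lost without inner fish 3, 4 or 5 or outer fish 2, 4 or 5 (0.62 to 0.73 over the 12 fits). The gluconeogenic enzyme Phosphoenolpyruvate-carboxykina... (spelled so on the array) had 0.86 ± 0.36 (adjusted p = 0.150). Among 12 genes of cell cycle, oncogenes and cell death 2 were higher. These were ki-Ras, a growth-signalling GTPase (0.77 ± 0.22, adjusted p = 0.0203, no overlap, call lost without inner fish 3), and PCD8 (0.49 ± 0.16 on its representative probe, adjusted p = 0.0494). That probe kept its call in 3 of 12 fits with 1 array left out, those without inner fish 2, outer fish 2 or outer fish 3, and its sign turned under quantile normalization and in the deposited values. The other 3 PCD8 probes had differences of 0.76 to 0.80 (adjusted p from 0.00121 to 0.00339) and were called in the reported fit. The tumour suppressor p53 (-0.11 ± 0.31) and the replication protein PCNA (0.33 ± 0.26) were not called.

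**Figure D2:**
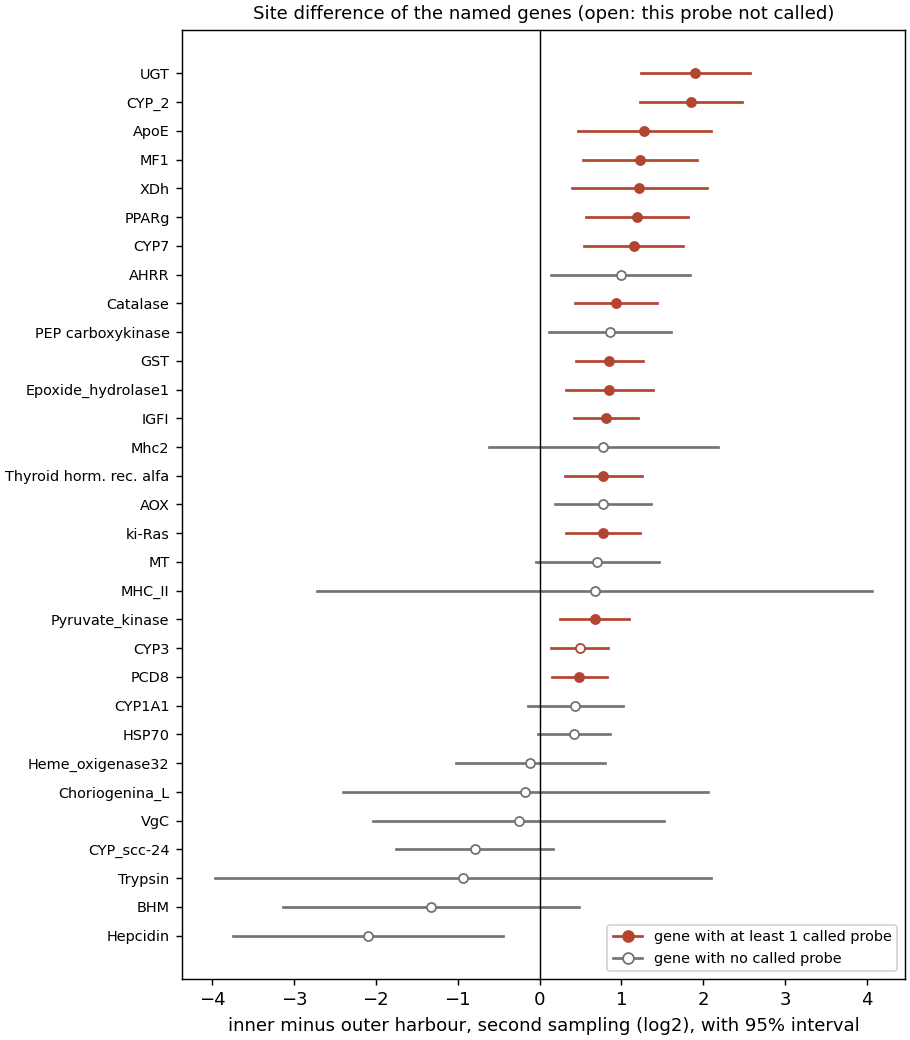
Inner minus outer difference (horizontal axis, log2) of the representative probe of each named gene, with the 95% interval from the fit to 24 arrays, 6 inner and 6 outer fish. Genes with a called probe are filled red, except CYP3, drawn open because its calls fell on other probes. The intervals of MHC_II and Trypsin are the widest, and all called genes lie to the right of 0.

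No gene was called lower. Hepcidin, the liver hormone that closes the iron exporter and also answers to infection, had the largest difference below 0, and its inner fish were far more spread than its outer fish. Its level ranged from -2.03 to 3.39 in inner fish (median 0.84), against 1.76 to 3.84 in outer fish (median 2.85). Inner fish 1 and 4 stood within the outer range, and the other four were below every outer fish. The difference was -2.10 ± 0.80 (adjusted p = 0.101), with an SD of 2.10 in inner and 0.83 in outer fish. It passed as lower when either inner fish 1 (-2.48, adjusted p = 0.0494) or inner fish 4 (-2.61, adjusted p = 0.0293) was left out. The other iron and metal genes were not called: Transferrin, the plasma iron carrier, had 0.33 ± 0.26, the ferritin gene FHC 0.12 ± 0.23 and the copper transporter solute_carrier_family31_1 0.45 ± 0.19.

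MT, the metal-binding metallothionein, ranged from 3.92 to 5.82 in inner fish (median 5.24), against 3.64 to 4.84 in outer fish (median 4.38). Inner fish 4 was the only inner fish below the highest outer fish, yet the difference of 0.70 had a 95% interval from -0.05 to 1.46 (adjusted p = 0.294). The chaperones HSP70 (0.42 ± 0.21, adjusted p = 0.279), HSC70 (0.40 ± 0.24) and HSP90 (0.27 ± 0.23) all had a higher inner mean, as had 82 of all 129 genes, and none passed. Of these 3 chaperones, 2 had a higher inner mean with quantile normalization or the deposited values. With the median over detected probes 1 of the 3 did. Among antioxidant genes other than catalase, Cu-Zn_SOD, which breaks down superoxide, had 0.09 ± 0.19, Glutathione_peroxidase_2 -0.01 ± 0.30 and Peroxiredoxine -0.06 ± 0.17. Heme_oxigenase32, which degrades heme, had -0.11 ± 0.44 here.

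Of 4 estrogen-responsive genes tested 0 were called, with a median of 0.06. VgC, a vitellogenin, ranged from -6.63 to -3.38 in inner fish (median -4.31), against -5.84 to -2.88 in outer fish (median -4.80). The ranges overlapped widely, with a difference of -0.25 ± 0.86 and a 95% interval from -2.03 to 1.53. Choriogenina_L, an egg envelope protein, was detected in 0 inner fish and 1 outer fish, which leaves no size resolved. VTG-A and VTG-B were too dim to be tested, and the receptors ERalpha (0.43 ± 0.49) and ERb (0.29 ± 0.37) were not called.

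Of 17 genes of acute phase, complement and immunity 0 were called, 8 had a higher inner mean, and the median was -0.03. With the median over detected probes 7 of the 17 were called lower by representative probe and 3 had a higher inner mean. Over all 129 genes these counts were 11 and 34. Quantile normalization and the deposited values each called 1 of the 17 lower, against 3 of the 129. Complement_Bf/C2, an activator of the complement cascade, had -0.54 ± 0.20 on its representative probe (adjusted p = 0.0938), which passed as lower without outer fish 5, but -0.13 to -0.11 on its other 3 probes. The a-2_macroglobulin gene, for a protease inhibitor, had -0.32 ± 0.18 and the central complement factor C3 -0.23 ± 0.21. INFkappaB? had -0.37 ± 0.22 on its representative probe, and the calls of its probes as lower under other scalings are given further on. MHC_II, which presents antigen on immune cells, was either near background or clearly detected. Its level was -10.69 and -10.81 in inner fish 2 and 4 and -5.61 to -1.72 in the other four, against -9.90 and -10.58 in outer fish 6 and 7 and -5.67 to -3.39 in the rest. The low fish occurred at both places, and the difference was 0.67 ± 1.64. Trypsin, a digestive enzyme of the exocrine pancreas, which in many fish lies within the liver, spread as widely (-3.46 to 4.78 in inner fish, -2.74 to 3.97 in outer fish).

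The 9 hepatocyte markers, of which ApoE and CYP7 are among the called genes, summed to 244 to 354 in inner and 254 to 301 in outer livers, on the linear scale relative to the array's 75th percentile. Trypsin alone stands for the pancreas and came to 0.0906 to 27.6 in inner and 0.150 to 15.7 in outer livers. CYP_scc-24, the only tested gene of the gonad list, came to 1.09 to 3.25 in inner and 2.59 to 6.55 in outer livers. It lay above the array's 75th percentile in every fish, and 1 such gene does not measure gonad content. The 4 leukocyte markers summed to 0.0355 to 0.358 in inner and 0.0369 to 0.168 in outer livers. The hepatocyte sum adds linear signals, so its brightest members weigh most in it, and it does not measure hepatocyte content. Its members differed widely in level. Beta-Fibrinogen lay far above the array's 75th percentile in every fish, and ApoE and CYP7 lay below it in every fish. Of the 9 hepatocyte markers 4 had a higher inner mean. The other cells' markers overlapped between the places, and the part of cell types in the called differences was not tested. In whole liver, fewer cells of a type and less RNA per cell cannot be told apart.

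**Figure D3:**
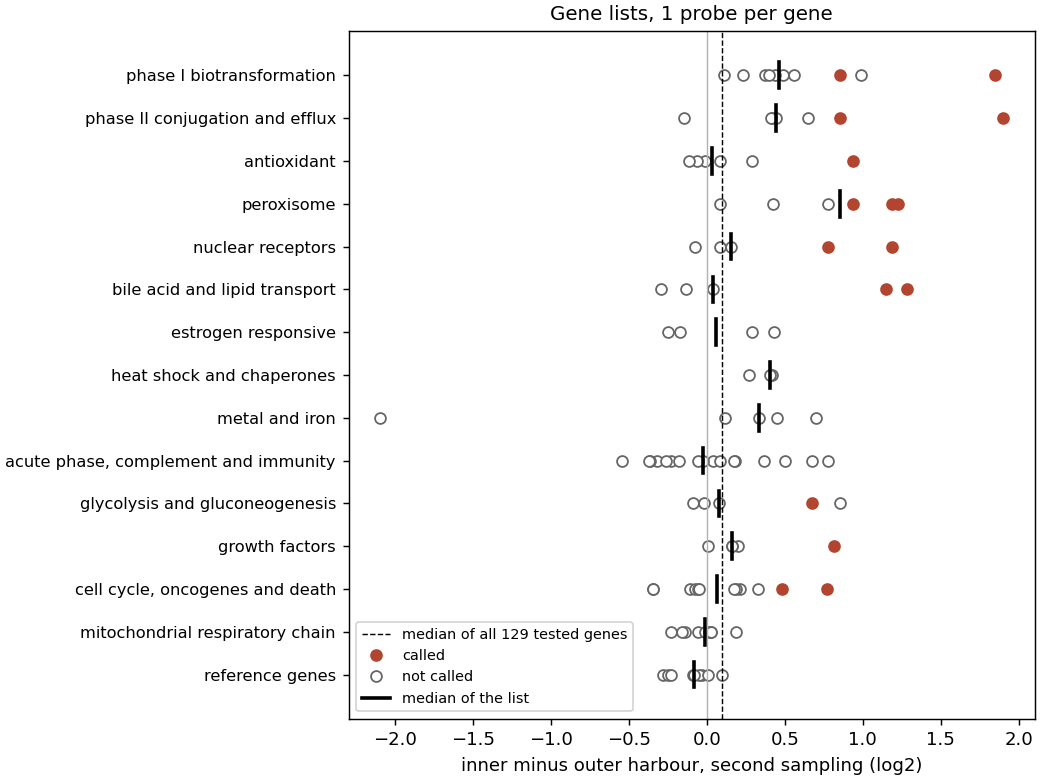
Inner minus outer difference (horizontal axis, log2) of every tested gene in 15 lists, 1 probe per gene, with filled points for called genes, short bars for list medians and a dashed line for the median of all 129 genes. The medians of the peroxisome, phase I and phase II lists lie furthest to the right of that line. Those of the heat shock, metal and iron, growth factor and nuclear receptor lists also lie to its right, and those of the mitochondrial and reference lists lie near 0.

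Genes of the mitochondrial respiratory chain gave 0 calls among 9, with a median of -0.01 and a range of -0.23 to 0.19. The 9 tested reference genes, ribosomal, actin and elongation factor genes often used to normalise expression, gave 0 calls and a median of -0.08, and 2 of them had a higher inner mean. With the median over detected probes 2 of the 9 were called lower and 0 had a higher inner mean, against 11 and 34 of all 129 genes. Calls also fell unevenly over signal strength. With the 476 probes in 4 equal classes by mean signal, 7 of 119 were called in the dimmest class, 27 in each of the middle classes and 0 in the brightest. The median difference was 0.15, 0.20, 0.16 and 0.06 from dimmest to brightest.

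By probe, 61 of 476 (12.8%) were called higher and 0 lower by limma, and 96 had an unadjusted p under 0.05. In 37 probes (7.77%) and 9 genes (6.98%) the 6 inner fish all lay above the 6 outer fish, and in 0 probes below them. The balance of higher and lower calls followed the scaling of the arrays. It was 11 higher and 14 lower with quantile normalization, 10 and 8 with the deposited log2 values, and 8 and 38 with each array centred on the median of its detected probes. Centring on the array median gave 38 and 2, spike-in controls 45 and 0, normexp background correction 43 and 0, and a 75th percentile taken over detected probes 57 and 0. The median difference of all probes was 0.10 as reported, and it moved by -0.41 with the median over detected probes, by -0.14 with the array median and by 0.18 with spike-ins. With the median over detected probes CYP_2 still differed by 1.44 (adjusted p = 0.00361). Under that scaling 12 genes had at least 1 probe called lower, among them C3, Beta-Fibrinogen, Fibrinogen_G, a-2_macroglobulin and the bile salt pump ABC-B11. The ribosomal genes Liza_aurata_S11r and ribosomal_protein_L12, of the reference list, were also among them with 4 probes each, and HIF1? with 3. Calmodulin and CDC_like_kinase_4 had probes called lower with the deposited values and with quantile normalization. INFkappaB? was at -0.37 ± 0.22 (adjusted p = 0.376) on its representative probe as reported. At least 1 of its 4 probes was called lower under 4 of the 7 other scalings. These were quantile normalization (3 probes), the array median (2), the median over detected probes (4) and the deposited values (3). With the array median no gene was called lower by its representative probe. Of the higher calls by representative probe, CYP_2 and UGT held under 7 of the 7, Catalase, Epoxide_hydrolase1, IGFI and PPARg under 4, CYP7 under 3, ApoE, GST, ki-Ras, Thyroid_hormone_receptor_alfa and XDh under 2, MF1 and Pyruvate_kinase under 1 and PCD8 under 0.

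**Figure D4:**
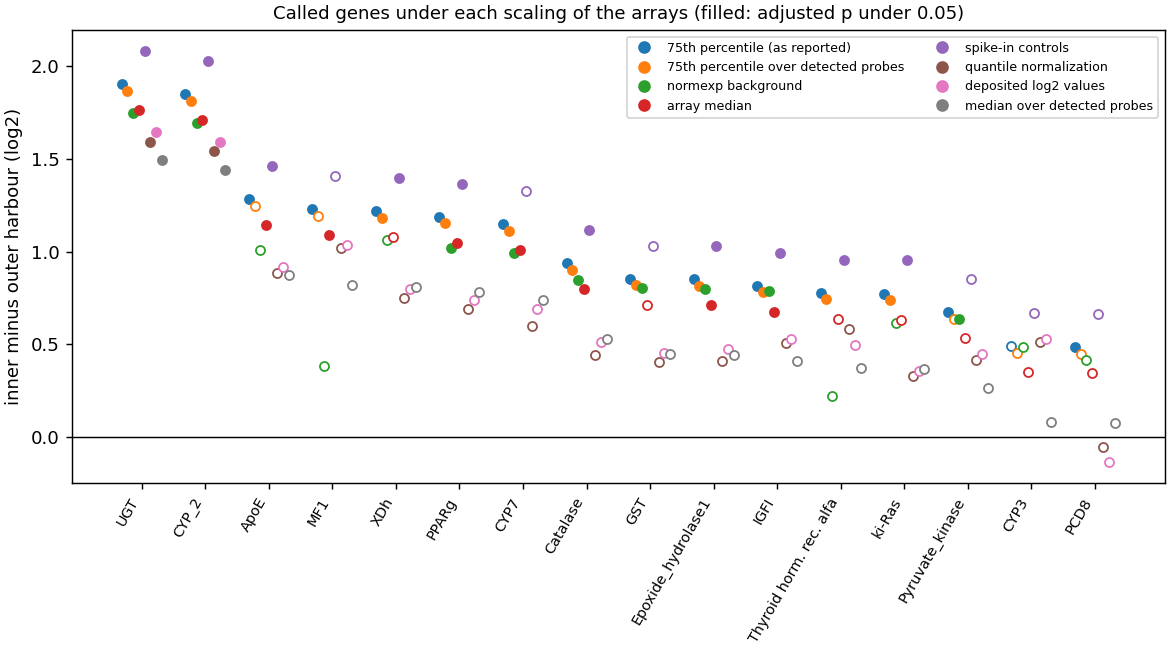
Inner minus outer difference (vertical axis, log2) of the representative probe of the 16 genes with a called probe, under the reported scaling and 7 others, filled where the adjusted p is under 0.05. UGT and CYP_2 are filled under all scalings, and PCD8 falls below 0 with quantile normalization and with the deposited log2 values.

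Single fish contributed unequally. Over the 16 genes with a called probe, inner fish 3 had the highest level of all 12 fish in 10 genes and lay on average 0.50 above its group's mean. This was not particular to the called genes. Over all tested probes its median deviation from the mean of the 12 fish was the highest in each of the 4 signal classes. From dimmest to brightest it was 0.36, 0.53, 0.30 and 0.25. Its array also had the lowest 75th percentile of the 12 (10.69), the value taken off, and the part of this was not tested. Outer fish 2 was the lowest of the 12 in 6 of these genes and outer fish 4 in 5. Without inner fish 3 the number of probes called higher was 31. Of the 16 genes, Catalase, CYP_2, CYP7, GST, IGFI, PPARg and UGT kept their call in each of the 12 fits that left out 1 array, though of these only CYP_2 and UGT also kept it, by representative probe, under each of the 7 other scalings.

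The first sampling puts the site differences in time, and the change of the difference was tested itself, as an interaction in the same fit. It was called for 58 of 476 probes (12.2%), 53 above 0 (11.1%) and 5 below (1.05%), and by representative probe for 13 genes above 0 (10.1%) and 1 below (0.775%). UGT differed by 1.90 at the second sampling and by -0.07 at the first, a change of 1.98 ± 0.45 (adjusted p = 0.00586). CYP7 differed by 1.15 at the second and by -0.81 at the first, a change of 1.96 ± 0.42 (adjusted p = 0.00318). At the first sampling the levels of both genes overlapped between the places. UGT ranged from -3.23 to -2.58 in inner fish, within the outer range of -3.67 to -2.45. CYP7 ranged from -6.19 to -3.83 in inner fish and from -4.95 to -3.27 in outer fish.

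The same direction of change was called for AOX (1.57 ± 0.40), Catalase (1.35 ± 0.34), Pyruvate_kinase (1.28 ± 0.29), Transferrin (1.28 ± 0.37), PCD8 (1.20 ± 0.23), HSC70 (1.15 ± 0.34), Epoxide_hydrolase1 (1.14 ± 0.36), VEGF (1.09 ± 0.34), HSP70 (1.02 ± 0.30), IGFI (1.01 ± 0.27) and GST (0.98 ± 0.28). Heme_oxigenase32 ran the other way, with -0.11 at the second sampling and 3.18 at the first, a change of -3.29 ± 0.62 (adjusted p = 0.00162). No change was called for CYP_2 (0.91 ± 0.43, adjusted p = 0.145), PPARg (0.21 ± 0.43, adjusted p = 0.793) or Thyroid_hormone_receptor_alfa (-0.13 ± 0.32). Under the other 7 scalings the change was called in all 7 for Heme_oxigenase32, in 6 for AOX and in 5 for UGT, but in 0 for Epoxide_hydrolase1 and VEGF and in 1 or 2 for the rest, with no sign turned. On every slide each sampling has its own row, and row and sampling cannot be told apart.

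**Figure D5:**
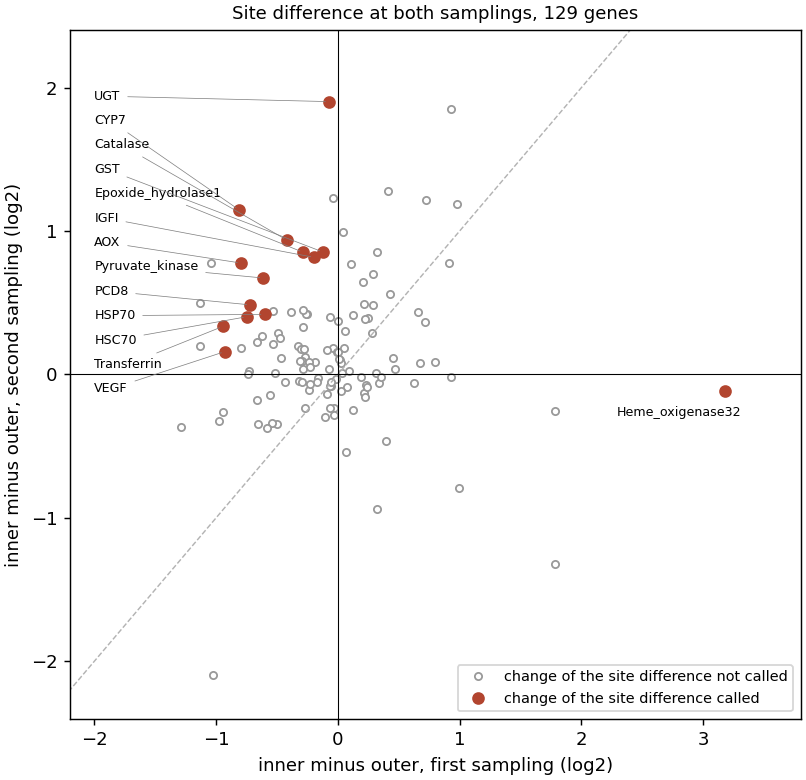
Inner minus outer difference at the second sampling (vertical axis, log2) against the first sampling (horizontal axis, log2) for 129 genes, with filled points where the change of the difference was called. The labelled genes above the dashed line of equal differences run from VEGF to UGT, and Heme_oxigenase32 lies far below it.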

How the data were processed

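Liver RNA was labelled with Cy3 and hybridised to one-colour custom arrays of 2612 gene spots. The spot intensity (background-subtracted, detrended within each array) comes, per the file headers, from the authors' run of Agilent Feature Extraction 9.5.3.1, with no recorded step between arrays. A table of log2 values deposited by the authors matched its own array for 24 of 24 columns (r of 0.992 or more), with column medians of 6.774 to 6.818. Its log2 scale is settled by these data, while the sources used here do not give its normalization or centring, and it served as an alternative.

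Uneven and outlying spots (40 to 125 per array) were left out, 0 spots were saturated, log2 signals were averaged per probe, and each array's 75th percentile was taken off. Probes with at least 50% of spots well above background on at least 6 of 24 arrays were tested. A limma 3.58.1 model (R 4.3.3) with 4 group coefficients was fitted to all 24 arrays, with 1 shared variance per probe. Contrasts were inner minus outer at the second sampling and its change from the first, two-sided. The median SE was 0.249 log2 units, and precision is limited by the number of arrays. The code of the fit was run on simulated data with independent noise for each probe and no shift between arrays. Such data cannot speak to overlapping probes or to the scaling of the arrays.

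Genes carry the array's own names, 166 names or 160 genes after spellings were joined, and 31 genes were too dim to test. Named genes are those with a called probe, the 10 with the largest differences without one, and the fixed markers CYP1A, MT, HSP70, vitellogenin, choriogenin and heme oxygenase. Not every member of a list is named beside its list's counts. The members, lists and rules were chosen with earlier results of these data known. Alternatives covered scaling, background correction, filter, slide and replicate number as blocks, and each array left out. Probes carry no genome coordinates.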

Additional observations from a re-analysis of the deposited data

Results flagged for a closer look

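Of 62 groups of 6 fish checked with Dixon's test for a single outlying value, 5 had a fish past the 95% critical ratio. Chance gives about 1 in 20. XDh had the largest ratio, 0.825 for inner fish 3 (level -0.59), and ApoE had 0.673 for the same fish (level -1.55). In the outer harbour, MF1 had 0.692 for fish 2 (level -8.53), PPARg 0.674 for fish 5 (level -2.46) and BHM 0.650 for fish 6 (level -6.92). Inner fish 3 is also the fish whose absence moved the count of called probes most, to 31.

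The inner minus outer difference changed between the samplings, by a test of the change itself, in 11 named genes. The change, second minus first, was 1.98 for UGT, 1.96 for CYP7, 1.57 for AOX, 1.35 for Catalase, 1.28 for Pyruvate_kinase and 1.20 for PCD8. It was 1.14 for Epoxide_hydrolase1, 1.02 for HSP70, 1.01 for IGFI, 0.98 for GST and -3.29 for Heme_oxigenase32. The HSP70 difference was 0.42 at the second sampling and -0.60 at the first.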

How the results depend on the processing

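The 61 higher and 0 lower probes became 11 and 14 with quantile normalization, 8 and 38 with the median over detected probes, 10 and 8 with the deposited values, and 38 and 2 when centred on the array median. With 1 array left out the higher count ran from 31 (without inner fish 3) to 67 and the lower count from 0 to 4. The 4 lower probes were Hepcidin's, without inner fish 1 or 4, and 1 of Complement_Bf/C2 was lower without outer fish 5. The count was 53 and 0 with no filter on dim probes, 60 and 0 with probes bright on all 12 arrays, 63 and 0 with only the 12 arrays in the fit, and 68 and 0 with slide as a block. Correlations of deviations for 5 shared sample numbers ran from -0.281 to 0.375, and whether the numbers pair the fish was not tested. With the number as a block 39 probes were higher and 0 lower. With 1 value per gene 16 genes were higher, against 15. The 53 probes whose site difference changed upward and 5 downward became 6 and 8 (quantile), 19 and 11 (array median), 18 and 9 (75th percentile over detected probes), 10 and 21 (median over detected probes), 7 and 4 (spike-ins), 7 and 6 (deposited values) and 37 and 4 (replicate block). By representative probe, signs turned for PCD8 (-0.0505 with quantile, -0.13 with deposited values), Choriogenina_L (0.0206 with quantile, 0.00374 with spike-ins, -0.49 to 0.39 with 1 array left out), Heme_oxigenase32 (0.0663 with spike-ins, -0.34 to 0.23 with 1 array left out), VgC (0.16 with the replicate block, -0.53 to 0.14 with 1 array left out) and MHC_II (-0.20 to 1.73 with 1 array left out). The cause was not tested. Over all alternatives of the named genes, 660 values kept direction and call status, 108 lost a call, 13 gained one and 18 turned sign. The 660 include genes that were not called as reported and stayed so. Only the 15 genes called by representative probe could lose a call, so 660 does not measure how stable the calls were. Probes near background, as for MF1, AHRR, Mhc2 and Choriogenina_L, limit what can be said of size.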

Other observations

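The remaining named genes had wide spreads. BHM had levels of -8.44 to -5.63 in inner fish (median -7.02), against -6.92 to -5.08 in outer fish (median -5.30), a difference of -1.32 ± 0.88 that was not called. CYP_scc-24, named for the side-chain cleavage enzyme that starts steroid synthesis, ranged from 0.12 to 1.70 in inner fish (median 1.34), against 1.37 to 2.71 in outer fish (median 1.58), with a difference of -0.79 ± 0.46. Mhc2 was detected in 2 inner fish and 0 outer fish, and its difference of 0.78 ± 0.67 has no resolved size.

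Inner livers varied more between fish than outer livers in 293 of 476 probes, with a median SD of 0.38 in inner and 0.35 in outer fish. In a principal component analysis of the 12 arrays, the first component held 32.8% of the variance and the second 17.5%. Site accounted for 0.232 of the variance along the first and 0.396 along the second (r squared), and slide for 0.00206 and 0.0159.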
